A study of Mus musculus with 5 samples.

Results

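NRF2, encoded by Nfe2l2, and 9 genes of its antioxidant pathway were followed in mouse 3T3-L1 adipocytes kept with or without human myeloma cells. The 10 genes were taken by symbol: Nfe2l2, Keap1, Nqo1, Hmox1, Gclc, Gclm, Srxn1, Txnrd1, Gpx2 and Osgin1. Each was measured by 1 probe set, so that 10 of the 22206 probe sets on the array are described here and none had to be chosen among several.

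Expression was measured with 5 Affymetrix Clariom S arrays of RNA from 3T3-L1 cells, a mouse line of preadipocytes that hormones drive to become fat cells. Per the labels, cells of both groups had first spent 4 days in basal medium. They had then received 4 days of adipogenic medium (insulin at 5 µg/mL with 1 µM dexamethasone and 0.5 mM IBMX), 2 further days with only the insulin and a last day in basal medium. The exposed group (3 arrays) then spent 72 h in RPMI-1640 with 10% serum beside MM.1S, a human multiple myeloma line, which lay behind a membrane with 0.4 µm pores. The control group (2 arrays) spent the same 72 h in that medium without myeloma cells. Control cells had therefore also been through the hormone mixture and the change of medium. Both lines are single established lines, and the label for cell type reads preadipocyte while that for stage reads mature. The labels number the arrays of a group as replicates without saying that they came from separate cultures, so p-values measure only the spread between these arrays, which may be technical.

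NRF2 is a transcription factor that switches on genes against oxidants and reactive chemicals. In unstressed cells KEAP1 holds it and passes it to a CUL3 ubiquitin ligase for destruction; oxidants and electrophiles modify KEAP1, NRF2 escapes, pairs with a small MAF protein and binds antioxidant response elements in its target genes. The pathway is controlled largely at the level of NRF2 protein, which an array does not measure, and its state is usually read from the RNA of its targets. In adipocytes it is known for handling the oxidants that arise with lipid storage and for effects on differentiation.

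Promoter windows from RefSeq (GRCm38.p6), each running from 250 bases before to 50 bases after a gene's start, were searched for the core of the antioxidant response element. The letters TGACNNNGC were looked for on both strands, and TGAGNNNGC, a second spelling of the core, was added after the windows had been seen. The first letters of both spellings can also begin an AP-1 site, so a match can belong to that site instead. Windows were used for 8 of the 10 genes (10 windows, 3 of them of Txnrd1). None was available here for Hmox1 and Gclc, so their promoters were not searched. The first spelling was present in 4 of these 10 windows (Nfe2l2, Srxn1, Gclm and 1 of Txnrd1), against 12.4% of all 32851 windows. The second was present in 2 of them (Srxn1 and Osgin1), against 17.6% of all windows. Either was present for 5 of the 8 genes, against 30.8% of the 27025 genes with a window. No match was found in the windows of Keap1, Nqo1 and Gpx2, which says only that these letters are not within those stretches.

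The windows of Osgin1, Srxn1 and Gclm are printed because they hold matches and because these genes differ in how much they varied between arrays, as given further below. Each runs 5′ to 3′ on the gene's strand, and capitals mark every match to either spelling.
Osgin1, chr8:119436897-119437196, plus strand: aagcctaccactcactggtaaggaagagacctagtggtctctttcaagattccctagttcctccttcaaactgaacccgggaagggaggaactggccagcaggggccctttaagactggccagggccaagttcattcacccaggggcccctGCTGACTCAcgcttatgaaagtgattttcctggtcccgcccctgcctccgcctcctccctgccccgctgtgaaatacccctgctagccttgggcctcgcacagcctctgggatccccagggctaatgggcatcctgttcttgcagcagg
Srxn1, chr2:152105274-152105573, plus strand: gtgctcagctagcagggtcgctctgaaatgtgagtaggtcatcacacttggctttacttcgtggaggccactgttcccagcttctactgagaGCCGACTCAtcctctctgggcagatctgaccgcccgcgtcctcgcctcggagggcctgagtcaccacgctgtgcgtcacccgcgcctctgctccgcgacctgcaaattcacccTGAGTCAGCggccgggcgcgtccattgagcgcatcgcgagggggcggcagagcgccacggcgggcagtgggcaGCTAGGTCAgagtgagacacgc
Gclm, chr3:122245307-122245606, plus strand: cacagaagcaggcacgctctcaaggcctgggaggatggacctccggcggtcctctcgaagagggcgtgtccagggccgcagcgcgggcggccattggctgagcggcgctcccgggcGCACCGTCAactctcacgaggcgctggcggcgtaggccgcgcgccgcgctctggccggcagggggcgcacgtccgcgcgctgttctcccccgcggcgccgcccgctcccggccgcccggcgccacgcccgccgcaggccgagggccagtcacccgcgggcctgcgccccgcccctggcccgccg
The Osgin1 match begins 99 bases before the start and, read on the opposite strand, has the letters TGAGTCAGC. The same letters begin 45 bases before the start of Srxn1, on the gene's strand. Srxn1 also holds TGAGTCGGC, beginning 158 bases before its start, and TGACCTAGC, beginning 28 bases after it, both on the opposite strand. Gclm holds TGACGGTGC on the opposite strand, beginning 134 bases before its start. The single matches of Nfe2l2 and Txnrd1 were TGACTCCGC and TGACAAAGC, beginning 240 and 92 bases before their starts. A match is a run of letters and not a site shown to be bound.

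None of the 10 genes passed the test between exposed and control adipocytes. Differences were computed with limma over all 22206 probe sets as exposed minus control on the log2 scale, where a value of 1 is a 2-fold difference, and a gene was called at a Benjamini-Hochberg adjusted p under 0.05. On that rule 0 of the 10 genes and 0% of all probe sets were called. At an unadjusted p under 0.05 it was again 0 of the 10 genes, against 3.49% of all probe sets, and the smallest adjusted p among the 10 was 0.93. Of the 10 genes 6 had a higher and 4 a lower mean on exposed arrays. Their median difference was 0.0071, against -0.00040 over all probe sets, and their median absolute difference was 0.13, as it was over all probe sets. The 95% interval lay within 2-fold in both directions for 9 of the 10 genes, Gpx2 being the exception, and for 92.9% of all probe sets. In data simulated for this comparison with independent normal values, limma recovered 0% of 200 genes changed 2-fold among 22206 probe sets. It recovered 91.5% of 200 genes changed 4-fold. The intervals therefore bound the differences between these arrays more closely than the missing calls do. They rest on the same spread between arrays, which may be technical.

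**Figure D1:**
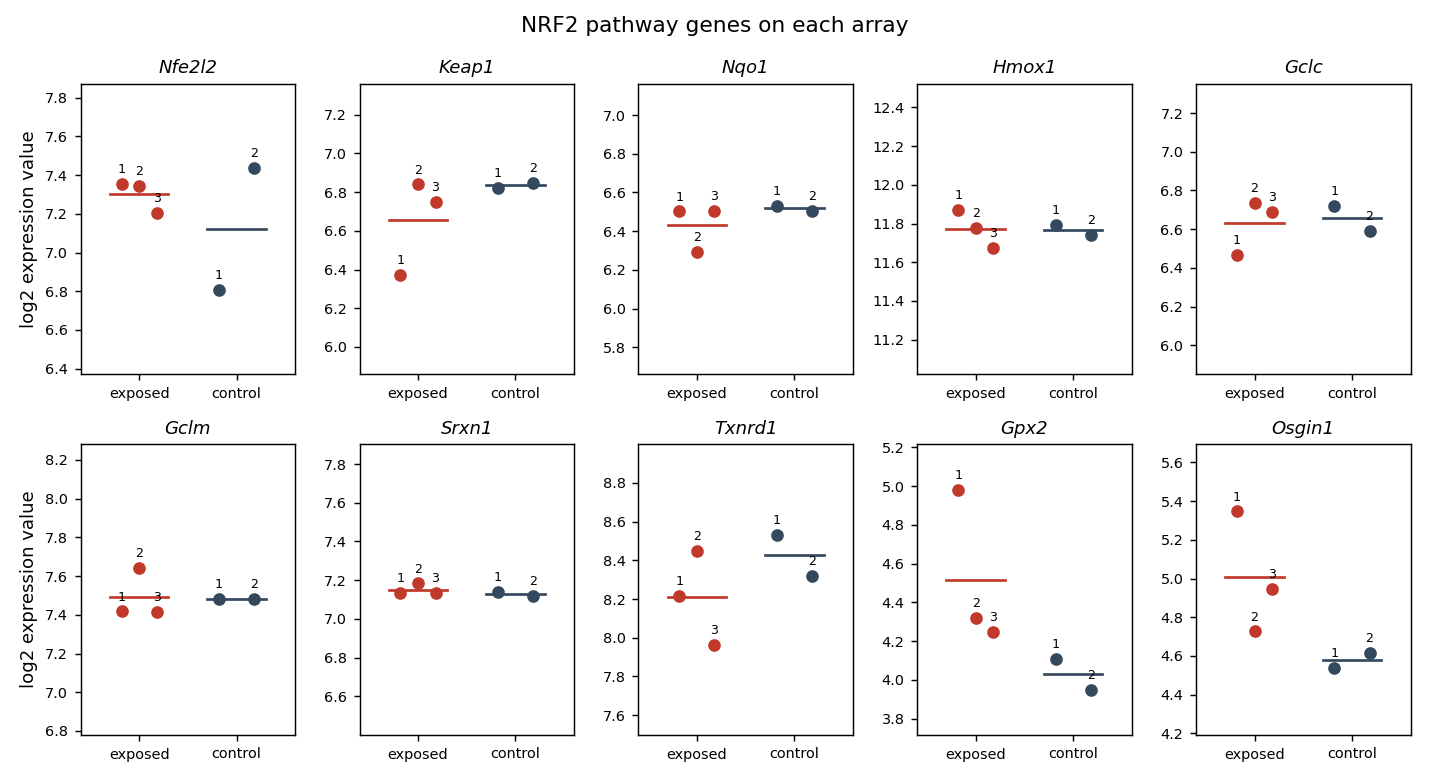
Log2 expression value of each of the 10 genes on every array, with exposed arrays (red) left of control arrays (dark blue), array numbers beside the points and a bar at each group mean; all panels span 1.5 log2 units. Exposed array 1 stands well above the other arrays for Gpx2 and Osgin1 and below them for Keap1, and control array 1 stands below the others for Nfe2l2.

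The transcription factor and its inhibitor come first. Nfe2l2 read 7.35, 7.35 and 7.21 on exposed arrays (numbers 1, 2 and 3 in that order, here and below), against 6.81 and 7.44 on control arrays. The exposed values lie between the control values, and control array 1 is the low one. The group means were 7.30 ± 0.083 (SD, n = 3 exposed arrays) against 7.12 ± 0.45 (SD, n = 2 control arrays). The difference was 0.18 (95% interval -0.32 to 0.68; limma adjusted p 0.94). That difference rests on control array 1: without it the value was -0.14, and without control array 2 it was 0.50 (unadjusted limma p 0.023, adjusted p 0.98; range of adjusted p over the alternatives 0.88 to 1.0). Each of these fits has 1 control array left and takes its spread from the exposed arrays alone.

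Keap1 encodes the sensor that holds NRF2 back. It read 6.37, 6.84 and 6.75 on exposed arrays, against 6.82 and 6.85 on control arrays. The groups overlap, because exposed array 2 lies between the control arrays, and exposed array 1 is lowest. The means were 6.65 ± 0.25 (SD, n = 3 exposed arrays) against 6.84 ± 0.017 (SD, n = 2 control arrays), a difference of -0.18 (-0.60 to 0.24; limma adjusted p 0.93). Without exposed array 1 the Keap1 difference was -0.040.

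The genes most often used to read NRF2 activity were nearly level. Nqo1 encodes a quinone reductase that keeps quinones from cycling with oxygen. It read 6.50, 6.29 and 6.50 on exposed arrays, against 6.53 and 6.51 on control arrays. All exposed values are lower than both control values, but exposed arrays 1 and 3 lie just under the lower control value and exposed array 2 is the low one. The Nqo1 difference was -0.085 (-0.41 to 0.24; limma adjusted p 0.95), and without exposed array 2 it was -0.015. Hmox1 encodes haem oxygenase 1, which breaks haem down to biliverdin, iron and carbon monoxide. It read 11.87, 11.78 and 11.68 on exposed arrays, against 11.79 and 11.74 on control arrays. The signal of Hmox1 was among the brightest of the table (percentile 99.5 of all probe sets) in both groups, and the control values lie within the exposed range. Its difference was 0.0057 (-0.30 to 0.32; limma adjusted p 1.00), an interval of 0.81- to 1.24-fold. Signal also depends on the probes of a set, so no level is set here against that of another gene.

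Glutathione synthesis begins with glutamate-cysteine ligase, whose catalytic subunit is Gclc and whose modifier subunit is Gclm. Gclc read 6.47, 6.74 and 6.69 on exposed arrays, against 6.72 and 6.59 on control arrays. Exposed array 1 was lowest and the other exposed arrays lay near control array 1. The Gclc difference was -0.026 (-0.37 to 0.32; limma adjusted p 0.99). Gclm read 7.42, 7.64 and 7.42 on exposed arrays, against 7.48 on both control arrays. Exposed array 2 was the high one, and the exposed values lie on either side of the control value. The Gclm difference was 0.0085 (-0.32 to 0.34; limma adjusted p 1.00). The control arrays carried exactly the same value for Gclm, as at least 2 of the 5 arrays did for 27.2% of all probe sets, so its control SD of 0 is no measure of error.

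The thioredoxin branch held the flattest gene of the set. Srxn1 encodes sulfiredoxin, which restores overoxidised peroxiredoxins. It read 7.13, 7.18 and 7.13 on exposed arrays, against 7.14 and 7.12 on control arrays. All 5 values lie within 0.064 of each other, a range at percentile 0.93 of the ranges of all probe sets. The Srxn1 difference was 0.020 (-0.26 to 0.31; limma adjusted p 0.99). Txnrd1 encodes the cytosolic thioredoxin reductase, a selenoprotein that passes electrons from NADPH to thioredoxin. It read 8.22, 8.45 and 7.96 on exposed arrays, against 8.53 and 8.32 on control arrays. Exposed array 3 was lowest, and exposed array 2 lay between the control arrays. The Txnrd1 difference was -0.21 (-0.65 to 0.22; limma adjusted p 0.93), and without exposed array 3 it was -0.092.

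Gpx2 and Osgin1 had the widest differences of the 10 genes, both higher on exposed arrays, and neither passed the test. Gpx2 encodes a selenium-dependent glutathione peroxidase best known from gut epithelium. It read 4.98, 4.32 and 4.25 on exposed arrays, against 4.11 and 3.95 on control arrays. Every exposed value is higher than both control values, and exposed array 1 stands 0.66 above the gene's mean while the other exposed arrays lie at -0.0013 and -0.075 from it. The means were 4.52 ± 0.41 (SD, n = 3 exposed arrays) against 4.03 ± 0.11 (SD, n = 2 control arrays). The Gpx2 difference was 0.49 (-0.11 to 1.08; unadjusted limma p 0.092, adjusted p 0.93), or 1.40-fold with an interval of 0.93 to 2.12. Osgin1 encodes a growth inhibitor induced by oxidative stress. It read 5.35, 4.73 and 4.94 on exposed arrays, against 4.54 and 4.61 on control arrays. Every exposed value is again higher than both control values, and exposed array 1 is again the highest. The means were 5.01 ± 0.31 (SD, n = 3 exposed arrays) against 4.58 ± 0.054 (SD, n = 2 control arrays). The Osgin1 difference was 0.43 (-0.061 to 0.92; unadjusted limma p 0.076, adjusted p 0.93), or 1.35-fold with an interval of 0.96 to 1.89. Over the alternatives the adjusted p of both genes ran from 0.85 to 1.0.

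**Figure D2:**
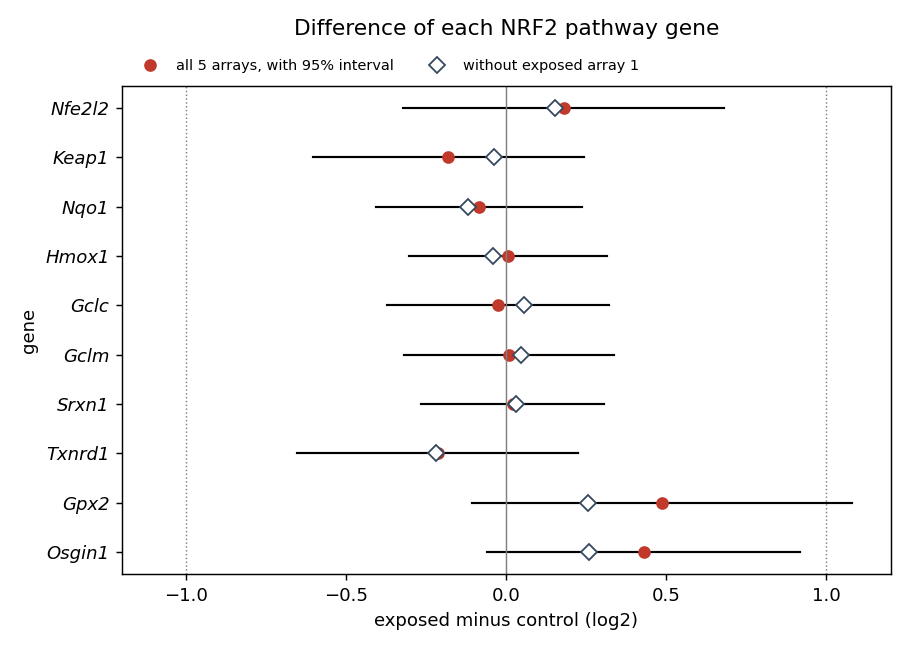
Exposed minus control difference (log2) of each of the 10 genes: red circles give the value from all 5 arrays with its 95% interval from limma, open diamonds the value without exposed array 1, and dotted lines mark 2-fold. All 10 intervals include 0, and the Gpx2 and Osgin1 differences move to 0.25 and 0.26 without that array.

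Groups did not overlap for 3 of the 10 genes, with Gpx2 and Osgin1 above and Nqo1 below. Over all probe sets 17.3% had groups without overlap, 8.5% with every exposed array above both control arrays and 8.84% with every exposed array below them. The share of the 10 genes is to be read against these shares, and no difference from them was tested.

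Much of the spread among these genes lay on exposed array 1. It was the array farthest from the gene's mean for 5 of the 10 genes (Keap1, Hmox1, Gclc, Gpx2 and Osgin1), and over all probe sets it was the farthest for 26.1%. For Hmox1 this was nearly a tie, with exposed array 1 at 0.098 and exposed array 3 at -0.095 from the mean. Exposed array 3 was the farthest for 1 of the 10 genes and for 26.2% of all probe sets. That share was 13.9% to 17.3% for exposed array 2 and the control arrays. The values of exposed array 1 were also spread more narrowly than those of the others: its quartiles lay 3.59 apart, against 3.74 to 3.83 on the other 4 arrays. Among probe sets below the median level it had the highest value of the 5 arrays for 28.1%, against 12.7% to 23.4% for each other array. Among those at or above the median level it had the lowest value for 32.9%, against 11.8% to 25.7%. Gpx2 lay below the middle of the signal range (percentile 44.0) and Osgin1 just above it (percentile 50.2), and both were high on exposed array 1. Keap1 and Gclc lay at percentiles 73.5 and 72.4 and were low there. Hmox1 (percentile 99.5), Nfe2l2 (percentile 79.3) and Nqo1 (percentile 70.1) lay 0.098, 0.12 and 0.035 above their means on that array. Gclm, Srxn1 and Txnrd1 (percentiles 82.1, 78.3 and 89.2) lay at -0.072, -0.0093 and -0.078 from theirs. When the 5 arrays were brought to 1 common distribution by quantile normalization, exposed array 1 still read highest for Gpx2 (4.94, with 4.35 and 4.25 on the other exposed arrays, against 4.16 and 3.96 on control arrays). The differences were then 0.45 for Gpx2, 0.42 for Osgin1 and -0.14 for Keap1. Without exposed array 1 the Gpx2 difference was 0.25 and the Osgin1 difference 0.26. Their direction could not turn there, because every exposed value of both genes is above both control values. The part of the narrower spread of that array in the other values was not tested. Without exposed array 1 the unadjusted limma p was 0.11 for Gpx2 and 0.13 for Osgin1, and the adjusted p 0.88 for both. Without exposed array 2 the Osgin1 difference was 0.57 (unadjusted limma p 0.033, adjusted p 0.85), and without exposed array 3 the Gpx2 difference was 0.62 (unadjusted limma p 0.069, adjusted p 0.88).

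The genes whose pattern lay nearest to Gpx2 and Osgin1, the members with the widest range over the 5 arrays, were in none of the pathway lists described below. Likeness was the root mean square distance between deviations from each probe set's own mean over the 5 arrays. Nearest to Gpx2 were Gm906 and Fcmr, each at a distance of 0.039, and Edn2 at 0.040. Nearest to Osgin1 were Gm20878 at 0.030, Cxcr2 at 0.037 and Tas2r126 at 0.043. Being chosen for nearness to genes that were highest on exposed array 1, each of these 6 probe sets had its highest value there. Fcmr, for example, read 5.98 on that array, with 5.36 and 5.25 on the other exposed arrays, against 5.21 and 4.94 on control arrays. They were picked from 19572 named probe sets on 5 arrays, of which the pathway lists hold 77. Their absence from those lists therefore says little, and the likeness carries no test.

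In the wider pathway no gene passed the test either. Of 83 further genes in 7 lists, 77 were measured, and 0 were called in either direction, against 0% of all probe sets. There were 38 with a higher and 39 with a lower mean on exposed arrays, with a median difference of -0.0021. At an unadjusted p under 0.05 there were 2 of them, or 2.6%, against 3.49% of all probe sets. Groups did not overlap for 20 of the 77 genes, or 26.0%, against 17.3% of all probe sets, and no difference between these shares was tested.

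Partners and regulators of NRF2 had 4 of 13 genes higher and 9 lower, 0 called, with a median of -0.076. The widest differences were those of Trim21, which encodes a ubiquitin ligase that binds p62, and Dpp3, whose protein binds KEAP1 in place of NRF2. Trim21 read 4.86, 4.69 and 5.01 on exposed arrays, against 5.23 and 5.26 on control arrays, a difference of -0.39 (-0.74 to -0.046; unadjusted limma p 0.032, adjusted p 0.93). Dpp3 differed by -0.37 (-0.78 to 0.034). Named outside the rule for naming genes, the ligase scaffold gene Cul3 differed by -0.083, the small MAF gene Mafg by 0.094 and Bach1, which encodes a repressor of NRF2 targets, by -0.0037.

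Genes of glutathione synthesis, reduction and conjugation had 12 of 20 higher and 8 lower, 0 called, with a median of 0.060. Gss, glutathione synthetase, which completes the molecule that GCLC and GCLM begin, read 5.90, 6.51 and 6.40 on exposed arrays, against 5.95 and 5.49 on control arrays. Exposed arrays 2 and 3 are above both control arrays and exposed array 1 lies between them. The Gss difference was 0.55 (-0.024 to 1.13; unadjusted limma p 0.057, adjusted p 0.93). The glutathione transferase gene Gstm4 differed by 0.30 (-0.19 to 0.79). Slc7a11, the cystine importer gene and a well known NRF2 target (named outside the rule), differed by -0.15. The NADPH supply list had 4 measured genes, 1 higher and 3 lower, 0 called, with a median of -0.083. Idh1, isocitrate dehydrogenase, differed by -0.24 and Taldo1, transaldolase, by 0.18.

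In the thioredoxin and peroxiredoxin list 6 of 9 measured genes were higher and 3 lower, 0 called, with a median of 0.073. Prdx4, the peroxiredoxin of the endoplasmic reticulum, differed by 0.20, and that value came from exposed array 3, which read 9.36 where exposed arrays 1 and 2 read 8.46 and 8.47 and both control arrays 8.56. Sesn2, a stress-induced sestrin gene, differed by 0.19. Among 8 genes of haem breakdown and iron storage 2 were higher and 6 lower, 0 called, with a median of -0.020. Slc40a1 encodes ferroportin, the iron exporter, and is a known NRF2 target. It read 4.71, 4.59 and 4.93 on exposed arrays, against 5.50 and 5.31 on control arrays. Every exposed value is lower than both control values. The Slc40a1 difference, the widest among the 77 genes, was -0.66 (-1.04 to -0.29; unadjusted limma p 0.0047, adjusted p 0.93), or between -0.76 and -0.57 over all alternatives, with adjusted p from 0.79 to 0.98. Hmox2, the constitutive haem oxygenase gene, differed by -0.25.

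Drug-metabolising enzymes had 4 of 11 genes higher and 7 lower, 0 called, with a median of -0.14. The aldo-keto reductase gene Akr1c13 differed by -0.42 (-1.005 to 0.17) and the prostaglandin reductase gene Ptgr1 by -0.34. The other antioxidant enzymes, such as superoxide dismutases, catalase and metallothioneins, had 9 of 12 higher and 3 lower, 0 called, with a median of 0.040. Every exposed array was above both control arrays for 5 of the 12 and below them for 1, against 8.5% and 8.84% of all probe sets. These counts were 1 and 3 for partners and regulators, 2 and 3 for glutathione and 0 and 1 for NADPH supply. They were 1 and 0 for thioredoxin, 1 and 2 for haem breakdown and 0 and 0 for drug-metabolising enzymes. No difference between these counts was tested. Mt2, a metallothionein gene, differed by 0.19 and Gpx3, the plasma glutathione peroxidase gene, by 0.18.

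**Figure D3:**
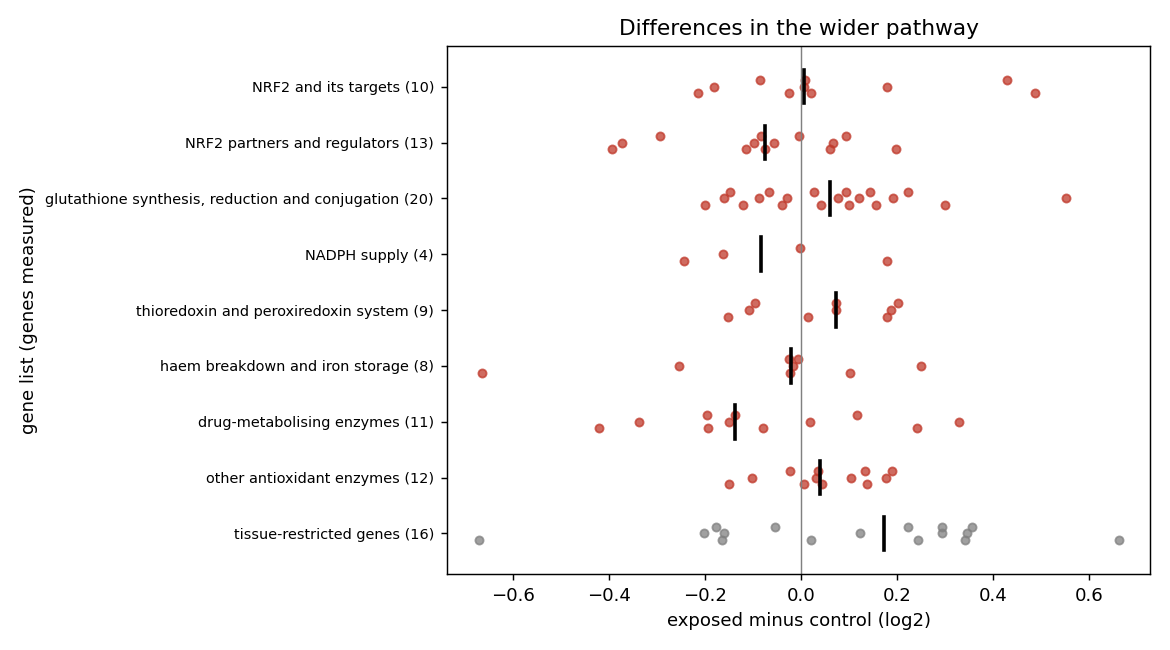
Exposed minus control difference (log2) of every measured gene (points) in the 10-gene set, the 7 further pathway lists and a list of tissue-restricted genes (grey), with the number of genes in brackets and a black bar at each list's median. Medians of the pathway lists lie between -0.14 and 0.073, and the lowest pathway point is Slc40a1 at -0.66.

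Markers of fat cells were bright on all arrays except for Cebpa, with a mean of 6.24 (percentile 67.2). Of 8 adipocyte markers 0 were called, 2 were higher and 6 lower, and their mean level was 10.2 to 10.4 on exposed and 10.4 on both control arrays; Plin1, a lipid droplet coat gene, differed by -0.25 and the transcription factor gene Cebpa by -0.24, and without exposed array 3 these values were -0.0025 and -0.11. In such bulk RNA fewer cells of a type and less RNA per cell cannot be told apart. Preadipocyte and fibroblast markers were bright except for Cd34, with a mean of 3.50 (6 measured, 1 higher, 5 lower, 0 called, median -0.10, with Dlk1 at -0.28 and Col3a1 at -0.20). Macrophages can express Hmox1 strongly, and the macrophage list (7 measured, 2 higher, 5 lower, 0 called, median -0.070) had a mean level of 3.82 to 4.01 on exposed, against 3.91 to 4.09 on control arrays. Its defining gene Adgre1 read 2.69 to 2.77 on exposed, against 2.67 and 3.20 on control arrays. Cd14, with a mean of 6.63 (percentile 72.3), differed by -0.32. B and plasma cell markers (7 measured, 4 higher, 3 lower, 0 called, median 0.0039) had Cd79b and Mzb1 each at -0.37. Without control array 1 Mzb1 was at -0.029, and without control array 2 Cd79b was at 0.23. Of these 7 genes 5 lay below the median level, among them Cd79b and Mzb1 (means 2.66 and 2.72, percentiles 15.4 and 17.0). Sdc1 and Xbp1 were bright, with means of 7.49 and 8.78. Mean levels of 16 tissue-restricted genes, such as those of liver, pancreas, heart and testis, ran from 2.40 to 5.60, and the 5-array means of Gpx2 (4.32) and Osgin1 (4.83) fall inside that span of array signal. So do those of Slc40a1 and Trim21 (5.01 each), and of Akr1c13, Ptgr1, Gstm4, Sesn2 and Gpx3. In this list 10 were higher and 6 lower, 0 called, with a median difference of 0.17. The table has no detection calls, so no value can be marked as background. The widest differences of the list were -0.67 for Alb and 0.66 for Prm2, the albumin and a protamine gene.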

How the data were processed

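RNA of 3 exposed and 2 control samples was hybridised to 1 Affymetrix Clariom S array each. The labels speak of 10 isolated samples, while 5 arrays are used here. Whether other arrays were normalized together with these 5 is not known. The deposited values are log2 expression values from RMA run in Partek (per the submitters' processing notes, with no version or annotation build given in the sources used here). RMA corrects background, normalizes quantiles and summarises probes; the deposited distributions still differ somewhat between arrays. Symbols came from the platform annotation (19572 of 22206 probe sets have 1, 0 have several, 2634 have none). Of 143 listed genes 131 were measured.

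The comparison used limma 3.58.1 under R 4.3.3 (lmFit, eBayes, group only, two-sided, no filter, Benjamini-Hochberg over all probe sets, 3 residual and 3.17 prior degrees of freedom). The fit was tested on simulated data. The number of arrays limits the precision: 95% intervals had a median half-width of 0.41. No file column was left out.

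The members, lists and tests were chosen with earlier results of these data known. All 10 members are named; from each other list the 2 genes with the widest difference, and the 3 genes nearest in pattern to the 2 members of widest range. Genes outside this rule are marked. Alternatives left out each array, rescaled, filtered dim probe sets, changed the moderation or weighted arrays. Matches in promoters were counted in RefSeq windows.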

Additional observations from a re-analysis of the deposited data

How the results depend on the processing

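No member was called under any of the 14 alternatives. With adjustment 0 of all probe sets passed under every alternative where they were counted, so the absence of members there says little. At an unadjusted limma p under 0.05, 776 of all probe sets passed and 0 members did. The median difference of the 10 genes ran from -0.0060 to 0.038 with 1 array left out. Of the 10 genes 6 kept their sign throughout. For Gpx2, Osgin1 and Nqo1, whose groups did not overlap, leaving out an array could not change the sign. With 1 array left out, Hmox1 ran from -0.042 to 0.0545, Gclc from -0.089 to 0.056, Gclm from -0.067 to 0.046, Nfe2l2 from -0.14 to 0.50, Prdx4 from -0.098 to 0.35, Cd79b from -0.96 to 0.23 and Adgre1 from -0.46 to 0.068. Centring each array on its median gave -0.0094 for Gclm and -0.012 for Hmox1, quantile normalization -0.026 for Hmox1 and 0.014 for Gclc, and array weights 0.0035 for Gclc. The cause of these changes of sign was not tested; all were within the 95% intervals from 5 arrays. Running the alternatives on the pathway and marker genes and on the count of members with a higher mean was decided after seeing the data; that count was 4 to 7 instead of 6.

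The labels give both groups the numbers 1 and 2, and the numbers were not taken as pairs. Same-numbered arrays did not deviate together (correlations -0.014 and -0.032 over probe sets). Both correlations rest on the same difference between the 2 control arrays, so they cannot settle whether arrays were paired. With the replicate block the median difference was 0.037 and Gpx2 differed by 0.62 (unadjusted limma p 0.029, adjusted p 0.96), Prdx4 by -0.098, and 0 members were called. Exposed array 3 has no partner there, so the differences equal those without it. Gpx2 was not tested when dim probe sets were left out. Each member has 1 probe set, so the mean of several changed nothing.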
